A study of Rattus norvegicus and Mus musculus and Macaca mulatta with 84 samples.

Results

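Chemokines, interleukin-1 genes and S100 proteins were followed in the liver RNA of diabetic rats and of mice given an inhibitor of the microRNA miR-29. The members are the genes whose symbol begins with Ccl, Cxcl, Ccr or Cxcr and a digit, with Cx3c, with Il1a, Il1b or Il1r, or with S100a and a digit. The rule took 72 of 32754 genes in the rat table and 83 of 48440 in the mouse table, and 68 symbols stand in both. The series holds 84 liver samples, of which 53 are small RNA libraries and 31 are libraries of polyadenylated RNA, prepared with an Illumina TruSeq kit per the labels. The RNA libraries are used here. The rats are of the UCD-T2DM strain, a line in which adult animals become obese and then diabetic. Their 20 libraries are 5 prediabetic, 4 at 2 weeks, 5 at 3 months and 6 at 6 months of diabetes, with no agent given per the labels. The mice are C57BL/6J: 5 libraries are labelled as LNA-29 treatment and 6 as its control. A locked nucleic acid (LNA) is a chemically stiffened antisense oligonucleotide that binds a microRNA and blocks it. The dose, schedule and sequence of LNA-29, what the controls received, and the animals' ages are not stated in the labels. The labels do not say that each replicate is a separate animal, so p-values measure the spread between these libraries, which may in part be technical.

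Chemokines are small secreted proteins that guide leukocytes along gradients, and their receptors are coupled to G proteins. CC ligands mainly draw monocytes, macrophages and lymphocytes. Many CXC ligands, Cxcl1 among them, draw neutrophils through Cxcr2, while Cxcl12 holds blood-forming cells in place through Cxcr4. Interleukin-1α and interleukin-1β, coded by Il1a and Il1b, bind the receptor Il1r1 with its partner Il1rap. Il1rn codes an antagonist of that receptor and Il1r2 a decoy without a signalling tail. S100 proteins are small calcium-binding proteins, and S100a8 with S100a9 forms calprotectin, the main cytosolic protein of neutrophils. In liver these genes are made by Kupffer cells, the resident macrophages, by recruited leukocytes, by duct and sinusoidal cells, and in part by hepatocytes.

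The deposited values are normalised counts, and every level below is such a count per library. Their sums ran from 37623500 to 49858900 in the 20 rat libraries and from 43341500 to 52750000 in the 11 mouse libraries, which limits precision for genes with low counts. Genes with a mean of at least 10 were tested with limma on log2(normalised count + 1), and a gene was called where its p-value, adjusted over all genes tested by the method of Benjamini and Hochberg, was under 0.05. Changes are therefore on the log2(normalised count + 1) scale, which understates those of low genes. In rats 46 of 72 members passed the filter and 3 were at 0 in every library. The highest mean among the 26 rat members left out was 8.27, for S100a1, and no value among them exceeded 30.9. In mice 42 of 83 members passed and 12 were at 0 throughout, with 7.81 as the highest mean left out, for Cxcr2. Ccr2 has no row of that symbol in the rat table. Close copies such as Ccl3 and Ccl4, Ccl6 and Ccl9, Cxcl1 and Cxcl2, Cxcr1 and Cxcr2, and the copies of Ccl21 can share reads, so their split is uncertain. These are bulk samples: fewer cells of a type and less RNA per cell cannot be told apart.

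Alb, the albumin gene of hepatocytes, matched the label of liver, at 2865840.0 to 4214650.0 in prediabetic and 3073590.0 to 6644300.0 in 6-month libraries. Of the 7 hepatocyte markers tested, 0 rose and 2 fell at 3 months, and 1 rose and 1 fell at 6 months. Of the 12 Kupffer cell and macrophage markers tested, 11 rose at 3 months and 11 at 6 months (Marco 1.62 and 1.82, Cd5l 1.40 and 1.55 on the log2 scale). Their summed level ran from 17739 to 26213 in prediabetic, 17566 to 22020 in 2-week, 25929 to 58813 in 3-month and 26412 to 77417 in 6-month libraries. Of 10 neutrophil markers 9 were in the rat table and 3 passed the filter, Csf3r, Mmp8 and Lcn2, and all 3 rose at both later stages. The neutrophil sum ran from 80.8 to 265 in prediabetic, 272 to 533 in 2-week, 510.3 to 35874 in 3-month and 337.6 to 64953 in 6-month libraries, and Lcn2, which hepatocytes also make, supplied most of it. The granule genes that define developing neutrophils were near 0, with Ltf at 0 in all 20 libraries, Mpo at no more than 2.60 and Elane at no more than 2.03. Bile duct markers rose in 1 of 6 at 3 months and 3 of 6 at 6 months, and stellate cell markers in 5 of 9 and 4 of 9. At each of these stages 1 of 9 T and NK cell, 2 of 4 B and plasma cell and 1 of 7 sinusoidal endothelial markers rose. Of all genes tested 7.76% rose and 8.72% fell at 3 months, and 11% rose and 10% fell at 6 months. The shares of T and NK cell (11.1%), sinusoidal endothelial (14.3%) and, at 3 months, bile duct markers (16.7%) each rest on 1 gene. They are not read as a rise of those cells. The summed level of red blood cell markers ran from 14235 to 22860 in prediabetic and 9620 to 12756 in 2-week libraries. It ran from 9301 to 29336 at 3 months and from 3192 to 62842 at 6 months, so blood content differed widely between late libraries. What part these cells have in the results below was not tested.

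At 3 and 6 months the share of members called stood above the share of all genes, and nearly all of the calls were upward. At 2 weeks of diabetes 0 of 46 members were called against the prediabetic group, beside 0% of all 13640 genes tested with limma, and 4 members had an unadjusted p under 0.05. At 3 months 12 of 46 members were called, which is 26.1% beside 16.5% of all genes. Of these 11 rose, beside 7.76% of all genes, and 1 fell, beside 8.72%. At 6 months 21 of 46 were called, 45.7% beside 21.1% of all genes, with 20 higher, beside 11%, and 1 lower, beside 10%. The median change over the tested members was log2 0.33 at 2 weeks, 0.58 at 3 months and 0.78 at 6 months, where the medians of all genes were 0.02, 0.02 and 0.01. Both later counts share the prediabetic libraries. Ages are not stated, so age and duration of diabetes cannot be told apart in any comparison between stages, those with the prediabetic group included. Called at both were 10 members: Ccl21, Ccl6, Cxcl12, Cxcr2, Il1r1, Il1r2, Il1rl1, S100a13, S100a8 and S100a9. Cxcl1 and Il1a were called at 3 months only, and 11 members at 6 months only. Without 3-month library 1 the 3-month count was 5, or 10.9% beside 10.7% of all genes, so that the members' share no longer stood above that of all genes. The 6-month count was 13 without prediabetic library 4 or 5, or 28.3% beside 14.1% and 14.8% of all genes. Prediabetic library 2 correlated least with its own group of all 20 rat libraries, at a mean of 0.959. Without it the 3-month count was 13, or 28.3% beside 15.2% of all genes. The 6-month count was then 21, or 45.7% beside 26.2%. Without the 3 libraries highest in Lcn2 (3-month 1, 6-month 3 and 6-month 5) the counts were 8 and 11. That is 17.4% beside 10.7% of all genes at 3 months and 23.9% beside 12.7% at 6 months. Without the 3 highest in Krt19, a duct keratin (3-month 4, 6-month 2 and 6-month 5), the counts were 11 and 13. Those are 23.9% beside 15.6% and 28.3% beside 12.8% of all genes. Lost in both runs were the 6-month calls of Ccl2, Ccl4, Ccr1, Cx3cl1, Cxcl16, Il1rap, S100a10 and S100a11. The 3-month calls of Ccl21, Il1rl1 and S100a13 were also lost in both. Calls were gained too: Il1b at 3 months in both runs, and Il1rn at 3 and 6 months without the 3 libraries highest in Krt19. Both runs fitted fewer libraries. Scaling all libraries to equal totals turned the split of all genes at 6 months from 1505 higher and 1370 lower to 1059 and 2071, and left 17 members higher and 1 lower.

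**Figure D1:**
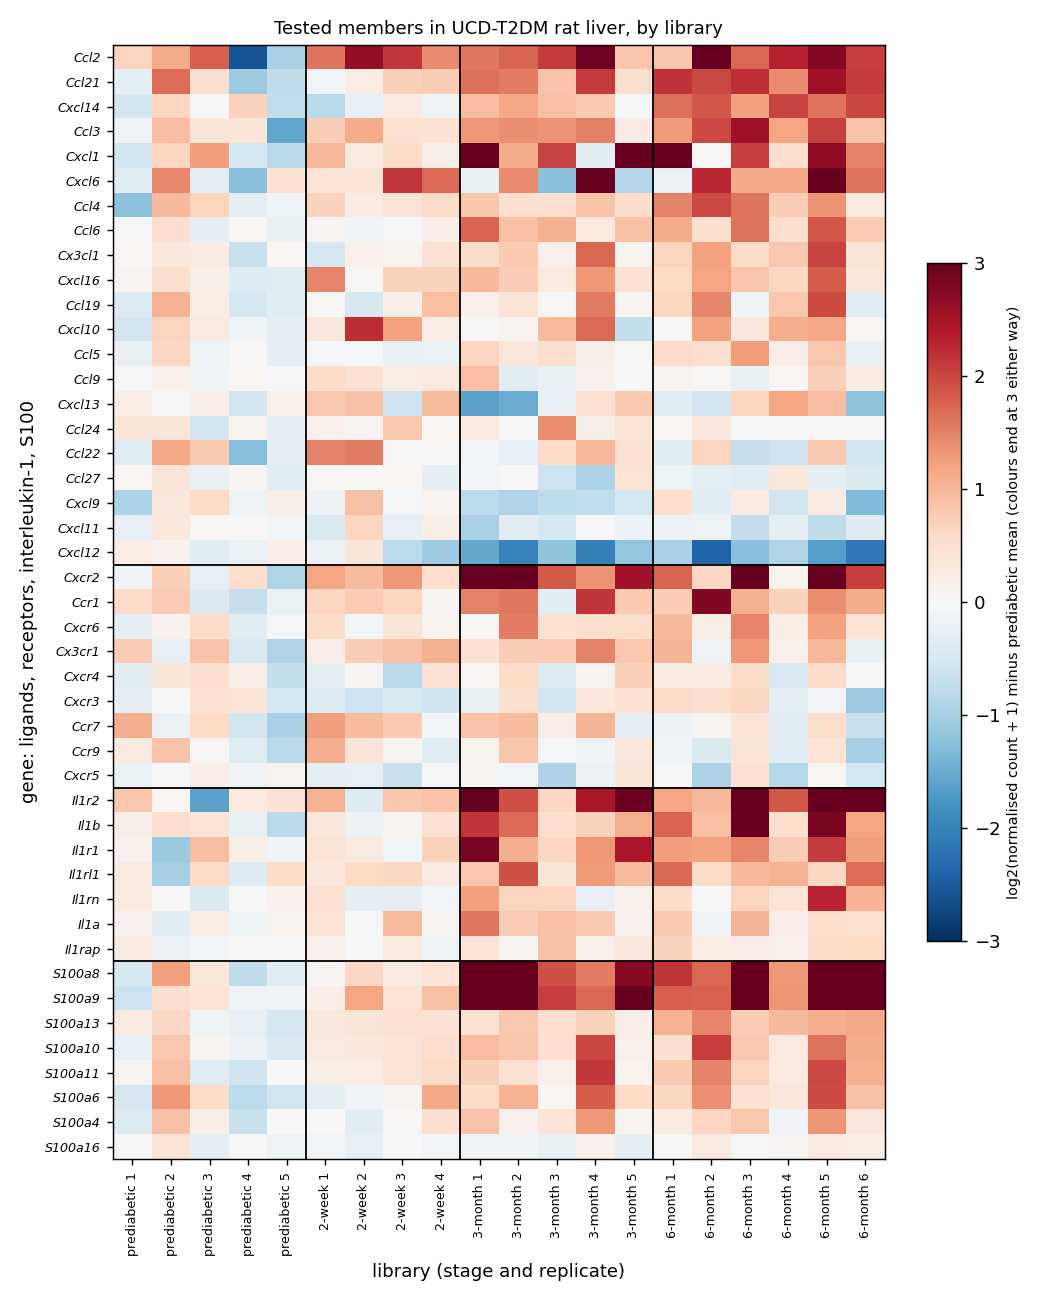
Each row is 1 tested rat member (1 of the 46 is not shown) and each column 1 library; colour is log2(normalised count + 1) minus the mean of the 5 prediabetic libraries, from blue (lower) to red (higher), with lines between ligands, receptors, interleukin-1 genes and S100 genes. The 3-month and 6-month columns are the reddest, above all for S100a8, S100a9, Il1r2 and Cxcr2, and the Cxcl12 row turns blue.

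**Figure D2:**
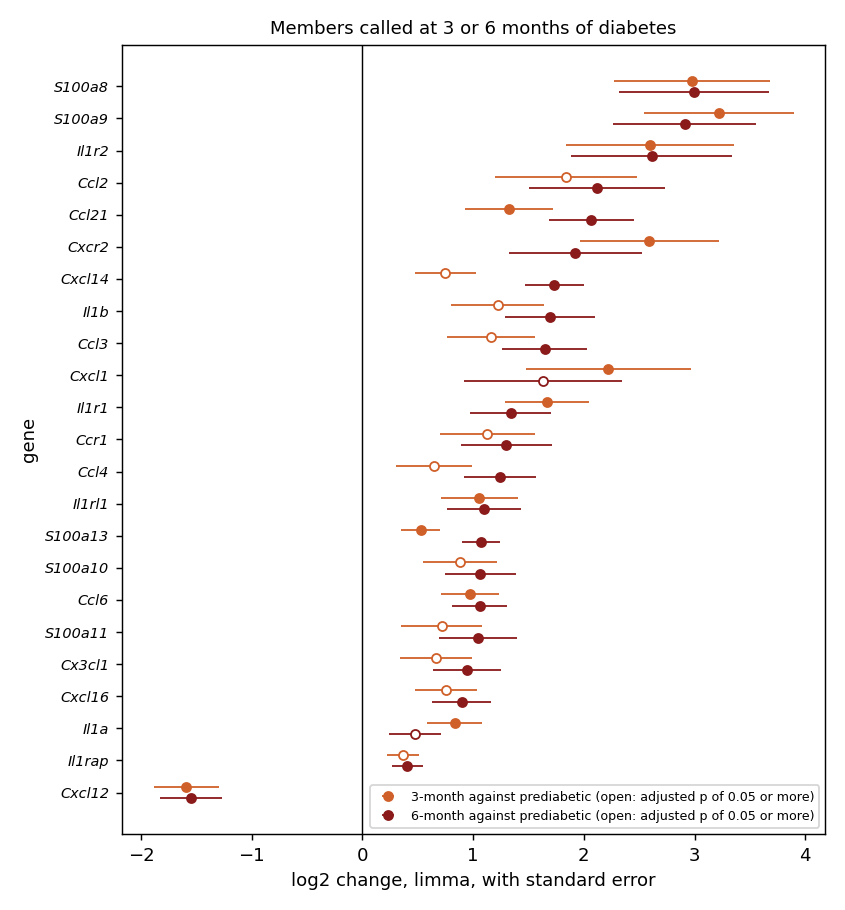
Points are limma log2 changes against the prediabetic group with standard errors for the 23 members called at 3 or 6 months; filled points had an adjusted p under 0.05. Cxcl12 is the lone gene left of 0, and the 3-month and 6-month points of S100a8, S100a9 and Il1r2 lie close together.

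Of the regulatory sequence near these genes, promoters from RefSeq (rat build GRCr8, each entry the 250 bases before the start and 50 after) were read for 55 of 72 members, 35 of them tested. NF-κB is the transcription factor that interleukin-1 signalling switches on, and a form of its site, the letters GGG and TTTCC with any 2 bases between them, on either strand, was searched in the 250 bases before the start. It stood in 4 of 35 tested members, which is 11.4%, and in 1.30% of all 33469 promoters. The 4 are shown because they are the members with a match: Cxcl1, Cxcl6, Ccl9 and Il1rn. Each line gives the 150 bases before the start on the gene's strand, with the matching letters in capitals.
Cxcl1 promoter (chr14:17479322-17479471, minus strand): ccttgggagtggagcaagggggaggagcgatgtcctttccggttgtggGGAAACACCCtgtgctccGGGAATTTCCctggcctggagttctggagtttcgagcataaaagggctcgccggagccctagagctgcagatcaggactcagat
Cxcl6 promoter (chr14:17596418-17596567, minus strand): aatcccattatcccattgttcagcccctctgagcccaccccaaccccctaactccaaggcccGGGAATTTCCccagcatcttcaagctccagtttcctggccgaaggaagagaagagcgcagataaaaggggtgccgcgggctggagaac
Ccl9 promoter (chr10:68868878-68869027, minus strand): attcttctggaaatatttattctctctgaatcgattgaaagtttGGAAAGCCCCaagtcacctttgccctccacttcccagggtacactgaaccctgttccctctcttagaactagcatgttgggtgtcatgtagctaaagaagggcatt
Il1rn promoter (chr3:27520172-27520321, plus strand): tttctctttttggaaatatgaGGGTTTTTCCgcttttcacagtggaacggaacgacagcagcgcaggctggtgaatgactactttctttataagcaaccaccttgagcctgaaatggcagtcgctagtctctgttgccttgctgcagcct
Cxcl1 has 2 matches, which begin 102 and 84 bases before the start, and the others 1 each, at 88 bases in Cxcl6, 106 in Ccl9 and 129 in Il1rn. Of these 4 genes Cxcl1 alone was called in rats in the main fit, at 3 months. Il1rn alone was called in mice, for which no promoter was read. The AP-1 letters TGANTCA stood in 5 of 35 tested members (Cxcl10, Cxcl11, Cxcl14, Cxcr6 and Il1a, 14.3%) and in 6.34% of all promoters, and the TATA box letters TATAAA in 14 of 35, or 40.0%, and in 12.9% of all. A match is a description of letters, not a bound site, and the motifs were chosen with the results known.

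Among the ligands of Cxcr2, Cxcl1 was called at 3 months, with wide scatter between libraries. Cxcl1 read 130.2, 300.3, 462, 132 and 109.6 in the prediabetic libraries and 385, 233, 289 and 216 at 2 weeks. At 3 months Cxcl1 read 5725, 416, 783, 154 and 2034, and at 6 months 198 at the lowest, 677 at the median and 1578 at the highest. Of the 3-month libraries 3 of 5 stood above every prediabetic one, library 1 far above all, and 3-month 4 lay inside the prediabetic range. For Cxcl1 the change was log2 2.22 (SE 0.74, adjusted p = 0.0474) at 3 months and log2 1.63 (SE 0.71, adjusted p = 0.11) at 6 months. The 3-month call was lost without prediabetic 1, 2, 4 or 5 or without 3-month 1, 3 or 5 (adjusted p from 0.0529 to 0.136), and with a lower filter. It was also lost without the 3 libraries highest in Lcn2 (adjusted p = 0.142). Cxcl6, another such ligand, was not called at any stage; its highest values were 64.2 in 3-month 4 and 87.5 in 6-month 5.

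Cxcl12, the ligand of Cxcr4, was the one member that fell. Cxcl12 read 24735, 23362, 16791, 18471 and 24451 in prediabetic libraries and 18662, 27285, 12322 and 10205 at 2 weeks. At 3 months it read 7358, 5333, 9249, 5198 and 9363, and at 6 months 4056 at the lowest, 7877 at the median and 11433 at the highest. Every 3-month and 6-month library lay below every prediabetic one, while at 2 weeks 2 of 4 lay below, 1 above and 1 within the prediabetic range. For Cxcl12 the change was log2 -1.59 (SE 0.29, adjusted p = 0.00181) at 3 months and log2 -1.55 (SE 0.28, adjusted p = 0.001) at 6 months, and the call held in every alternative run for both. Cxcr4, its receptor, read 67.3, 111, 122, 98.1 and 51.3 in prediabetic and 88.4, 129.9, 65.4, 92.7 and 141 in 3-month libraries, with overlap of the groups, and its change was 0.22 at 3 months and 0.20 at 6 months, neither called. Cxcr4 spanned 48.4 to 118 at 2 weeks and 62.5 at the lowest, 103 at the median and 128 at the highest at 6 months. Ackr3, the scavenging receptor that removes Cxcl12, rose at 3 months, by log2 1.26 (SE 0.34, adjusted p = 0.0167), and was not called at 6 months, at log2 0.63 (SE 0.33, adjusted p = 0.179).

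Cxcl14, a chemokine of epithelia, rose late. Cxcl14 read 176, 403, 250.1, 419 and 155 in prediabetic and 147, 219, 308 and 231 in 2-week libraries. At 3 months it read 495, 582, 482, 446 and 252, and at 6 months 613 at the lowest, 878 at the median and 1059 at the highest. All 6 of the 6-month libraries stood above all 5 prediabetic and all 4 of the 2-week libraries, and 4 of 5 at 3 months stood above the prediabetic ones. For Cxcl14 the change was log2 0.75 (SE 0.28, adjusted p = 0.0689) at 3 months, not called, and log2 1.73 (SE 0.27, adjusted p = 0.000257) at 6 months. Cxcl14 was also higher at 6 months than at 2 weeks, by log2 1.98 (SE 0.28, adjusted p = 0.000561), the one call of that comparison that held in every alternative run.

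Cxcl16 and Cx3cl1 are the chemokines anchored in the cell membrane, which tether cells bearing Cxcr6 or Cx3cr1. Cxcl16 read 222, 288, 234, 157 and 160.1 in prediabetic and 569.6, 213, 335 and 334 in 2-week libraries. It read 409.8, 347, 252, 511 and 282 at 3 months and 261 at the lowest, 343 at the median and 725 at the highest at 6 months, where 5 of 6 libraries stood above the prediabetic range. For Cxcl16 the change was log2 0.75 (SE 0.28, adjusted p = 0.0696) at 3 months and log2 0.90 (SE 0.27, adjusted p = 0.0229) at 6 months, a call lost without prediabetic 4 or 5 or without 6-month 5 (adjusted p from 0.0559 to 0.068). Cx3cl1 read 34.9, 42.3, 40.0, 20.9 and 34.9 in prediabetic and 23.4, 37.7, 36.3 and 46.0 in 2-week libraries. It read 49.5, 59.1, 37.8, 113 and 36.4 at 3 months and 44.0 at the lowest, 57.2 at the median and 142 at the highest at 6 months, with every 6-month library above the prediabetic ones and 3-month 4 and 6-month 5 the highest. For Cx3cl1 the change was log2 0.66 (SE 0.32, adjusted p = 0.165) at 3 months and log2 0.94 (SE 0.31, adjusted p = 0.0364) at 6 months, and the later call was lost without prediabetic 1, 4 or 5 or without 6-month 2 or 5 (adjusted p from 0.0572 to 0.112). Cx3cr1, the receptor, was close to the filter: it read 11.9, 5.42, 12.7, 4.54 and 3.08 in prediabetic, 7.82, 11.7, 13.0 and 14.9 in 2-week and 9.50, 11.6, 12.0, 20.3 and 12.4 in 3-month libraries. At 6 months Cx3cr1 read 5.50 at the lowest, 10.9 at the median and 17.7 at the highest, the groups overlapped, and it was not called at any stage (0.85 and 0.52 at 3 and 6 months).

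Cxcl10 is one of the ligands of Cxcr3 that interferon induces, with Cxcl9 and Cxcl11. Cxcl10 read 58.8, 138, 105, 78.9 and 71.8 in prediabetic and 108, 402, 201 and 100.3 in 2-week libraries, where 2-week 2 was the highest of all 20. It read 85.4, 93.1, 169, 282 and 52.4 at 3 months and 86.3 at the lowest, 147 at the median and 200.1 at the highest at 6 months, and the groups overlapped. None of the 3 was called at any stage: the log2 change at 6 months was 0.64 for Cxcl10, -0.21 for Cxcl9 and -0.42 for Cxcl11. Cxcr3 itself was not called. Cxcl13, which draws B cells through Cxcr5, was not called either.

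**Figure D3:**
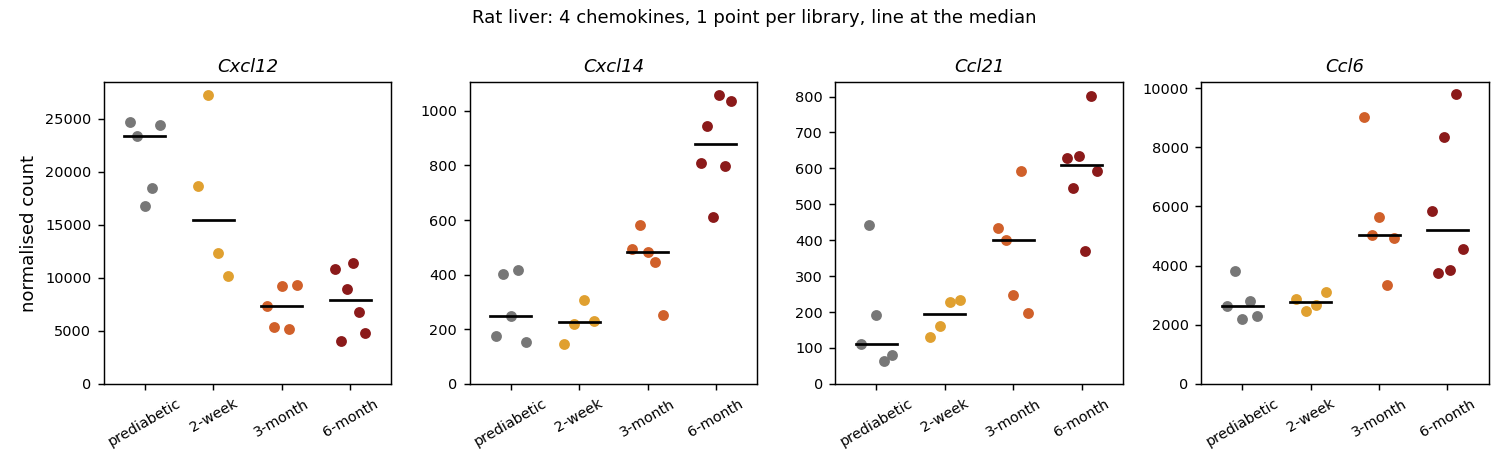
Points are normalised counts of Cxcl12, Cxcl14, Ccl21 and Ccl6 in each rat library by stage, on linear axes from 0, with a line at each group's median. Cxcl12 falls below the prediabetic range at 3 and 6 months, Cxcl14 at 6 months lies wholly above it, and Ccl21 and Ccl6 keep 1 library each within it at 6 months.

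Of the CC chemokines 2 of 11 tested rose at 3 months (18.2%, beside 7.76% of all genes) and 5 of 11 at 6 months (45.5%, beside 11%), and none fell. Ccl2, which draws monocytes through Ccr2, read 8.51, 11.9, 19.97, 0 and 2.05 in prediabetic and 17.4, 36.7, 25.1 and 15.0 in 2-week libraries. It read 17.0, 19.1, 24.8, 44.6 and 9.75 at 3 months and 9.70 at the lowest, 26.5 at the median and 48.1 at the highest at 6 months, with 4 of 6 libraries above the prediabetic range and 6-month 1 low. The counts are small and 1 prediabetic library is at 0, so the fitted change depends on the pseudocount: it was log2 1.95 (SE 0.68, adjusted p = 0.501) at 2 weeks, 1.84 at 3 months (adjusted p = 0.0546) and log2 2.12 (SE 0.61, adjusted p = 0.0198) at 6 months. The 6-month call was lost without prediabetic 4 or 5 (adjusted p from 0.0585 to 0.0605); prediabetic 4 is the one at 0. The range of the 6-month change over the alternatives was log2 1.41 to 2.57.

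Ccl3 and Ccl4, neighbouring chemokines made by activated macrophages, rose at 6 months. Ccl3 read 10.2, 21.7, 14.5, 14.5 and 3.07 in prediabetic and 19.1, 24.9, 15.6 and 15.1 in 2-week libraries. It read 28.4, 30.8, 29.4, 33.3 and 13.3 at 3 months and 20.9 at the lowest, 37.1 at the median and 68.8 at the highest at 6 months, with 5 of 6 libraries above the prediabetic range and 6-month 3 the highest. For Ccl3 the change was log2 1.16 (SE 0.40, adjusted p = 0.0528) at 3 months, not called, and log2 1.65 (SE 0.38, adjusted p = 0.00561) at 6 months. Ccl4 changed by log2 1.25 (SE 0.33, adjusted p = 0.0112) at 6 months, where 4 of 6 libraries stood above the prediabetic range, 38.4 to 127 against 12.8 to 61.8. That call was lost without the 3 libraries highest in Lcn2 (log2 1.13, adjusted p = 0.0642) or the 3 highest in Krt19 (log2 1.03, adjusted p = 0.0721). Fewer libraries were fitted there. Ccl5, which draws T cells, was not called (0.51 at 6 months).

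Ccl6 and Ccl9 are rodent chemokines made by macrophages, and they lie side by side in the genome. Ccl6 read 2634, 3829.8, 2197, 2810.1 and 2312 in prediabetic and 2859.6, 2472, 2656 and 3110.0 in 2-week libraries. It read 9008, 5019, 5654, 3328 and 4938 at 3 months and 3762 at the lowest, 5207 at the median and 9814 at the highest at 6 months. Of the 3-month libraries 4 of 5 and of the 6-month libraries 5 of 6 stood above the prediabetic range, with 6-month 5 and 3-month 1 the highest. For Ccl6 the change was log2 0.97 (SE 0.26, adjusted p = 0.0162) at 3 months and log2 1.06 (SE 0.25, adjusted p = 0.00613) at 6 months. The earlier call was lost without 3-month 1 (adjusted p = 0.0523). Ccl9, the member with the highest normalised count in rats, gave a different picture: it ran from 18645 to 22622 in prediabetic and 23625 to 29683 in 2-week libraries to 15942 to 37898 at 3 months and 17294 to 33245 at 6 months. All 4 of its 2-week libraries stood above all 5 prediabetic ones, the one member of 46 to do so (2.17%, beside 1.44% of all genes), but the change was log2 0.37 (SE 0.20, adjusted p = 0.651). It was not called at 3 or 6 months.

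Ccl21, the ligand of Ccr7 made by lymphatic vessels and lymphoid stroma, read 112, 441, 192, 64.3 and 80.9 in prediabetic and 130.3, 161, 229 and 235 in 2-week libraries. It read 433, 399.8, 249, 592 and 197 at 3 months and 371 at the lowest, 610.2 at the median and 803 at the highest at 6 months. Prediabetic 2 was high, above 4 of 5 of the 3-month libraries, and 6-month 4 was the one late library below it. For Ccl21 the change was log2 1.32 (SE 0.40, adjusted p = 0.0289) at 3 months and log2 2.07 (SE 0.38, adjusted p = 0.00121) at 6 months, and the later call held in every alternative run. The earlier one was lost without prediabetic 1, 4 or 5 or without 3-month 1, 2 or 4 (adjusted p from 0.0586 to 0.089). Ccl19, the other ligand of Ccr7, was not called, and neither was Ccr7. Ccl24, which draws eosinophils through Ccr3, read 311, 314, 163, 263 and 200.2 in prediabetic and 268, 258, 425 and 254 in 2-week libraries. It read 299, 243, 638, 275 and 315 at 3 months and 237 at the lowest, 249.7 at the median and 309 at the highest at 6 months, the groups overlapped, and its changes of 0.45 and 0.08 were not called. The rest of the CC chemokines tested, Ccl22 and Ccl27, had log2 changes of -0.13 and -0.19 at 6 months and were not called.

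Of the 9 CC and CXC receptors tested, 1 rose at 3 months (11.1%, beside 7.76% of all genes) and 2 at 6 months (22.2%, beside 11%). Cxcr2, the neutrophil receptor of Cxcl1, read 2.36, 4.97, 2.08, 4.19 and 0.946 in prediabetic and 7.21, 6.01, 7.94 and 4.14 in 2-week libraries. It read 67.5, 28.3, 11.9, 8.25 and 19.7 at 3 months and 2.87 at the lowest, 12.7 at the median and 53.6 at the highest at 6 months. All 5 of the 3-month libraries stood above every prediabetic one, and 4 of 6 at 6 months, where 6-month 2 and 6-month 4 stayed within the prediabetic range. For Cxcr2 the change was log2 2.59 (SE 0.63, adjusted p = 0.00936) at 3 months and log2 1.92 (SE 0.60, adjusted p = 0.0287) at 6 months, and the 6-month call was lost without prediabetic 1, 3 or 5 or without 6-month 3 or 5 (adjusted p from 0.0524 to 0.0799). The 6-month call of Cxcr2 was also lost without the 3 libraries highest in Lcn2 (adjusted p = 0.133). Csf3r, the receptor of the neutrophil growth factor G-CSF, moved with it: log2 2.28 (SE 0.59, adjusted p = 0.0137) at 3 months and log2 2.04 (SE 0.57, adjusted p = 0.0154) at 6 months. Csf3r was at 227, 311 and 184 in 3-month 1, 6-month 3 and 6-month 5, the libraries with the highest Cxcr2. Ccr1, a receptor of Ccl3 and Ccl5 on monocytes, had a change of log2 1.13 (SE 0.43, adjusted p = 0.0765) at 3 months, not called, and rose by log2 1.30 (SE 0.41, adjusted p = 0.0305) at 6 months, with 5 of 6 libraries above the prediabetic range and 151 in 6-month 2. That call was lost without prediabetic 3, 4 or 5 or without 6-month 2 or 5 (adjusted p from 0.0546 to 0.0897). Ccr7, Ccr9, Cxcr3, Cxcr4, Cxcr5 and Cxcr6 were not called at any stage.

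Of the 7 interleukin-1 genes tested, 4 rose at 3 months (57.1%, beside 7.76% of all genes) and 5 at 6 months (71.4%, beside 11%), and none fell. Il1b read 127, 159, 147, 96.2 and 63.6 in prediabetic and 143, 100.3, 121 and 155 in 2-week libraries. It read 503, 367, 159, 184 and 239 at 3 months and 163 at the lowest, 319 at the median and 896 at the highest at 6 months. Every 3-month and every 6-month library lay at or above 159, against 159 for the highest prediabetic one, so that the 3-month groups were parted by less than 1 count. For Il1b the change was log2 1.22 (SE 0.42, adjusted p = 0.0525) at 3 months, just over the threshold, and log2 1.70 (SE 0.40, adjusted p = 0.00634) at 6 months. The 3-month change was called without the 3 libraries highest in Lcn2 (log2 0.99, adjusted p = 0.0412) or in Krt19 (log2 1.35, adjusted p = 0.0361). Il1a read 177, 128, 187, 146 and 173 in prediabetic and 215, 156, 314 and 169 in 2-week libraries. It read 485, 272, 299, 279 and 177 at 3 months and 147 at the lowest, 227 at the median and 327 at the highest at 6 months, and the groups overlapped. For Il1a the change was log2 0.83 (SE 0.24, adjusted p = 0.0253) at 3 months and log2 0.48 (SE 0.23, adjusted p = 0.156) at 6 months. The 3-month call was lost without prediabetic 2 or 4 or without 3-month 1 (adjusted p from 0.0565 to 0.0796). It was also lost without the 3 libraries highest in Lcn2 (adjusted p = 0.0736).

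The signalling receptor Il1r1 rose at both later stages. Il1r1 read 2180.5, 916, 3785, 2252 and 1869 in prediabetic and 2632, 2393, 1895 and 3213 in 2-week libraries. It read 14402, 4287, 3098, 4899.9 and 10982 at 3 months and 3352 at the lowest, 4756 at the median and 8581 at the highest at 6 months. 3-month 1 and 3-month 5 stood highest, and 1 library of each later group, 3-month 3 and 6-month 4, lay under the highest prediabetic value. For Il1r1 the change was log2 1.67 (SE 0.38, adjusted p = 0.00686) at 3 months and log2 1.34 (SE 0.37, adjusted p = 0.0142) at 6 months, and it was not called at 6 months without the 3 libraries highest in Krt19. Il1rap, the shared co-receptor of interleukin-1 and interleukin-33, read 2122, 1559, 1647, 1731 and 1749.8 in prediabetic and 1915, 1740.1, 2151 and 1586 in 2-week libraries. It read 2304, 1841, 3214, 1936 and 2233 at 3 months and 1954 at the lowest, 2331 at the median and 2826 at the highest at 6 months, with 3 of 6 libraries above the prediabetic range. For Il1rap the change was log2 0.37 (SE 0.14, adjusted p = 0.0866) at 3 months and log2 0.41 (SE 0.14, adjusted p = 0.0422) at 6 months. That call was lost without prediabetic 2, 3, 4 or 5 or without 6-month 1, 5 or 6 (adjusted p from 0.0741 to 0.0898).

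The decoy receptor Il1r2 was nearly silent in early libraries. Il1r2 read 4.26, 2.17, 0, 2.72 and 3.08 in prediabetic and 5.21, 1.30, 4.32 and 4.48 in 2-week libraries. It read 97.9, 10.6, 3.69, 15.4 and 22.2 at 3 months and 4.90 at the lowest, 17.6 at the median and 66.1 at the highest at 6 months. All but 1 of the 3-month libraries and every 6-month library stood above or just above the prediabetic maximum, with 3-month 1, 6-month 5 and 6-month 3 highest. For Il1r2 the change was log2 2.60 (SE 0.76, adjusted p = 0.0249) at 3 months and log2 2.61 (SE 0.73, adjusted p = 0.0159) at 6 months. Since several early values are near 0, the size depends on the pseudocount. The 3-month call was lost without prediabetic 3 or without 3-month 1 (adjusted p from 0.0627 to 0.0792), and the 6-month one was lost without the 3 libraries highest in Lcn2. Il1rl1, the interleukin-33 receptor also called ST2, read 9.37, 3.35, 11.8, 5.62 and 11.6 in prediabetic and 9.85, 12.1, 12.2 and 9.21 in 2-week libraries. It read 14.0, 31.4, 10.2, 19.9 and 15.6 at 3 months and 11.8 at the lowest, 16.4 at the median and 27.7 at the highest at 6 months, with 4 of 5 and 5 of 6 libraries above the prediabetic range. For Il1rl1 the change was log2 1.06 (SE 0.35, adjusted p = 0.0425) at 3 months and log2 1.10 (SE 0.33, adjusted p = 0.0242) at 6 months. The first call was lost without prediabetic 1, 2 or 4 or without 3-month 1, 2, 4 or 5 (adjusted p from 0.0501 to 0.119). The later one was lost without prediabetic 2 or 4 or without 6-month 1 or 6 (adjusted p from 0.0538 to 0.0663).

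The antagonist Il1rn was not called in rats in the main fit. Il1rn read 1506, 1253, 916, 1257 and 1348 in prediabetic and 1712, 1031, 1019 and 1179 in 2-week libraries. It read 2889, 1974, 1938, 1053 and 1381 at 3 months and 1227 at the lowest, 1904 at the median and 6090.5 at the highest at 6 months. 6-month 5 was the highest of all 20 libraries, and 5 of 6 at 6 months stood above the prediabetic range. For Il1rn the change was log2 0.49 (SE 0.33, adjusted p = 0.316) at 3 months and log2 0.83 (SE 0.31, adjusted p = 0.0658) at 6 months. Without the 3 libraries highest in Krt19 it was called at both, at log2 0.673 (adjusted p = 0.0349) and 0.668 (adjusted p = 0.0427).

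Of the 8 S100 genes tested, 3 rose at 3 months (37.5%, beside 7.76% of all genes) and 5 at 6 months (62.5%, beside 11%), and the calprotectin pair showed the largest changes of all members. S100a8 read 14.4, 49.9, 26.2, 11.7 and 16.3 in prediabetic and 21.8, 32.0, 25.2 and 27.8 in 2-week libraries. It read 1113, 174, 79.8, 61.4 and 142 at 3 months and 52.6 at the lowest, 199 at the median and 619 at the highest at 6 months. All 5 of the 3-month and all 6 of the 6-month libraries stood above every prediabetic and 2-week library. For S100a8 the change was log2 2.97 (SE 0.70, adjusted p = 0.00825) at 3 months and log2 2.99 (SE 0.67, adjusted p = 0.00452) at 6 months. S100a9 read 17.8, 40.1, 38.0, 26.2 and 26.5 in prediabetic and 33.1, 66.0, 38.1 and 53.4 in 2-week libraries. It read 1508, 304, 123, 96.4 and 284 at 3 months and 72.5 at the lowest, 243 at the median and 899 at the highest at 6 months, again with no overlap between the later and the earlier groups. For S100a9 the change was log2 3.22 (SE 0.67, adjusted p = 0.0042) at 3 months and log2 2.91 (SE 0.65, adjusted p = 0.00413) at 6 months. Within the later groups both spanned more than a factor of 10 between libraries, with 3-month 1 the highest. Without the 3 libraries highest in Lcn2 both calls held, at log2 2.30 and 2.61 at 3 months and 2.25 and 2.14 at 6 months for S100a8 and S100a9. Mmp8, a collagenase of neutrophil granules, moved with them, at 4.11 to 10.9 in prediabetic and 19.5 to 356 in 3-month libraries (log2 2.62), and its part in the result was not tested.

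**Figure D4:**
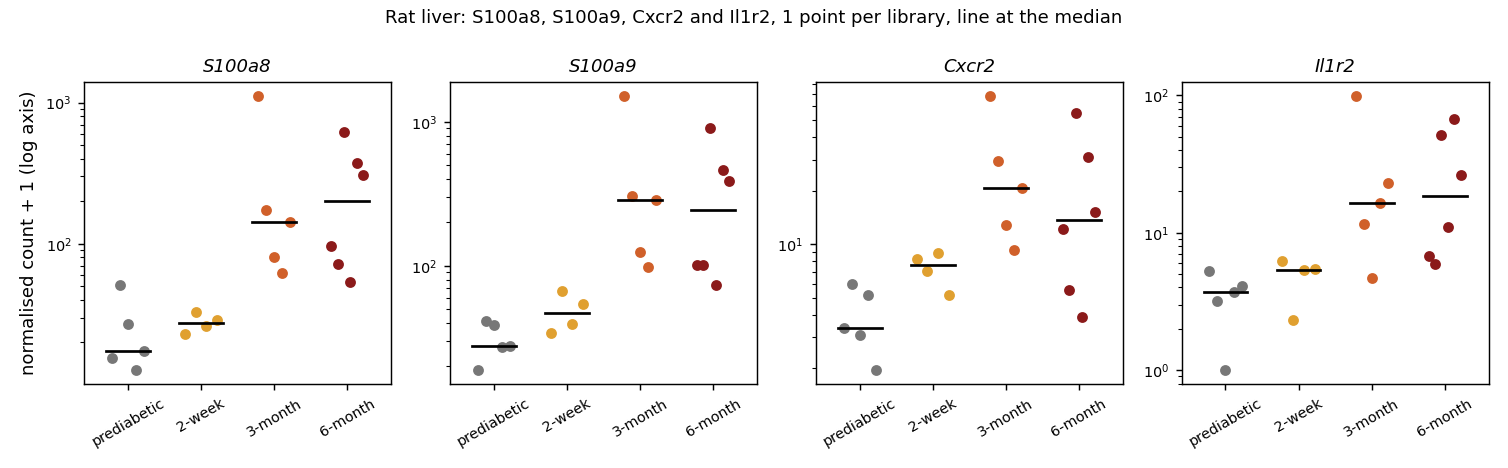
Points are normalised counts plus 1 of S100a8, S100a9, Cxcr2 and Il1r2 in each rat library by stage, on log axes, with a line at each group's median. S100a8 and S100a9 at 3 and 6 months lie wholly above the earlier stages, and Cxcr2 and Il1r2 overlap them in part.

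S100a10 and S100a11, partners of annexins that lie next to each other in the genome, rose at 6 months. S100a10 read 122, 253, 154, 128 and 104 in prediabetic and 175, 181, 191 and 204 in 2-week libraries. It read 274, 257, 204, 587 and 160.3 at 3 months and 178 at the lowest, 284 at the median and 610.2 at the highest at 6 months, with 4 of 6 libraries above the prediabetic range. For S100a10 the change was log2 0.88 (SE 0.34, adjusted p = 0.0774) at 3 months and log2 1.07 (SE 0.32, adjusted p = 0.0243) at 6 months. S100a11 read 34.0, 59.8, 24.3, 20.7 and 31.5 in prediabetic and 35.9, 37.4, 42.7 and 48.0 in 2-week libraries. It read 52.8, 44.0, 35.7, 142 and 34.5 at 3 months and 38.8 at the lowest, 61.5 at the median and 129 at the highest at 6 months, and 3-month 4 and 6-month 5 were the highest for it. For S100a11 the change was log2 0.72 (SE 0.37, adjusted p = 0.187) at 3 months and log2 1.04 (SE 0.35, adjusted p = 0.0402) at 6 months. The call of S100a10 was lost without prediabetic 1, 4 or 5 or without 6-month 2 or 5 (adjusted p from 0.0534 to 0.0696). That of S100a11 was lost without prediabetic 1, 3, 4 or 5 or without 6-month 2, 5 or 6 (adjusted p from 0.0603 to 0.113).

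S100a13, which takes part in the release of interleukin-1α without a signal peptide, rose at both later stages by log2 0.53 (SE 0.18, adjusted p = 0.0495) and log2 1.07 (SE 0.17, adjusted p = 0.000361). At 6 months all 6 libraries, 172 to 285, stood above the prediabetic range of 72.4 to 157. The 3-month call of S100a13 was lost without prediabetic 3, 4 or 5 or without 3-month 1, 2, 3 or 4 (adjusted p from 0.075 to 0.131). S100a6, a protein of epithelial and stromal cells, read 66.2, 234, 139, 54.2 and 63.2 in prediabetic and 78.3, 87.4, 101 and 209.9 in 2-week libraries. It read 142, 197, 98.2, 333 and 144 at 3 months and 119 at the lowest, 159.6 at the median and 368 at the highest at 6 months, and prediabetic 2 lay above most later libraries. Its changes of 0.82 (adjusted p = 0.179) and 0.93 (adjusted p = 0.0987) were not called. S100a4, a protein of fibroblasts and leukocytes, read 39.1, 97.6, 59.9, 32.6 and 53.2 in prediabetic and 53.0, 42.1, 53.7 and 74.2 in 2-week libraries. It read 95.3, 57.4, 69.9, 131 and 55.8 at 3 months and 48.8 at the lowest, 74.7 at the median and 132 at the highest at 6 months, overlapped throughout and was not called (0.55 and 0.54). S100a16 was not called.

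The members did not peak in the same libraries. Over the 11 libraries of 3 and 6 months, 10 members had their 3 highest values in 3-month 4, 6-month 2 and 6-month 5: Ccl19, Ccl2, Ccl22, Cx3cl1, Cxcl10, Cxcl16, Cxcl6, S100a10, S100a11 and S100a6. The duct keratin Krt19 was highest in the same 3, at 639, 379.5 and 565, with 311 the highest elsewhere among the 11. Another 7 members peaked in 3-month 1, 6-month 3 and 6-month 5: Ccl5, Ccl6, Cxcr2, Il1b, Il1r2, S100a8 and S100a9. Lcn2 was highest there, at 35265, 12935 and 64692, with 4155 the highest elsewhere. 6-month 5 belongs to both sets, and no other set of 3 libraries held more than 2 members. These sets were read from the values and are a description without a test, and what part duct cells or leukocytes have in them was not tested. How many of all genes peak in the same sets was not counted, so they cannot be called particular to the members.

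Genes that act with these members were read from lists. Of 15 tested genes of interleukin-1 processing and antagonism, 4 rose and 1 fell at 3 months (the inflammasome sensors Nlrc4 1.29 and Nlrp3 0.82, the interleukin-18 co-receptor Il18rap 0.85, and the inhibitory receptor Sigirr -0.54). At 6 months 6 of 15 rose, among them Casp1 0.74, the protease that cuts interleukin-1β, its adaptor Pycard 0.80 and the related Casp4 0.74. Of 24 genes of signalling below the receptor, 3 rose at each stage and none fell, which is 12.5%, beside 7.76% of all genes at 3 months and 11% at 6 months. They were Nfkbiz (1.31 and 1.64), Relb (1.10 and 0.98) and Nfkb1 (0.64 and 0.66), all of the NF-κB system. None of the rest of the 24 was called, and the median change of this list was 0.21 at 3 months and 0.10 at 6 months. The 6-month share was close to that of all genes. Of 9 partners and receptors of S100 proteins, 5 rose at 3 months and 4 at 6 months, led by Tlr2 (1.71 and 1.79), a receptor of innate immunity. Of 11 atypical chemokine receptors and other chemokines, 2 rose at 3 months. At 6 months 2 of 11 rose, Cmklr1 at 0.93 and Ccrl2 at 0.68, and Ackr2, a scavenger of inflammatory CC chemokines, fell by 1.57 on the log2 scale. Of 9 other cytokines and receptors, 4 rose at 3 months and 3 at 6 months, among them the macrophage growth factor Csf1 (1.04 and 0.95), its receptor Csf1r (0.95 and 0.92) and Tnfrsf1b (0.89 and 0.86). Set beside 7.76% and 11% of all genes higher at 3 and 6 months, the shares were 26.7% and 40% for processing and antagonism. They were 55.6% and 44.4% for S100 partners and 44.4% and 33.3% for other cytokines and receptors. For atypical receptors and other chemokines the share was 18.2% at both, resting on 2 genes. The median changes of these 5 lists ran from 0.04 to 0.59 at 3 months and from 0.10 to 0.68 at 6 months, beside 0.02 and 0.01 over all genes.

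Chromosomal neighbours did not all move together. By the order of protein-coding genes in RefSeq (GRCr8), the members fall into 15 runs of at least 2 neighbours. In the run Ccl5, Ccl9, Ccl6, Ccl3 and Ccl4 all 5 were tested and 3 rose at 6 months, while Ccl5 and Ccl9 were not called. The run S100a16, S100a3, S100a4, S100a5, S100a6, S100a7a, S100a8 and S100a9 had 5 members tested, of which S100a8 and S100a9 alone were called. Cxcl11, Cxcl10 and Cxcl9 stood together with none called, and of the pair Il1a and Il1b the first was called at 3 months and the other at 6 months.

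Between the diabetic stages themselves fewer members were called. From 2 weeks to 6 months 8 of 46 were called, 17.4% beside 8.82% of all genes, with 7 higher beside 4.66% and 1 lower beside 4.16%. Those that rose were S100a8 (2.65), S100a9 (2.24), Cxcl14 (1.98), Ccl21 (1.66), Il1b (1.51), Ccl6 (1.03) and S100a13 (0.67), and Cxcl12 fell by 1.13 on the log2 scale. This count rested on single libraries. It was 1 without 2-week library 1 or 2-week library 2, with Cxcl14 the one that held, or 2.17% beside 3.48% and 2.32% of all genes. It was 2 without 6-month 5, 4.35% beside 4.40%, and 4 without 2-week 4, 8.70% beside 5.22%. Without any 1 of the first 3 of these libraries the members' share did not stand above that of all genes. From 2 weeks to 3 months 0 of 46 were called by limma, beside 2.35% of all genes (1.15% higher and 1.2% lower), and 13 had an unadjusted p under 0.05. The count was 1 without 2-week 4 (2.17% beside 1.10% of all genes) and 2 without 3-month 5 (4.35% beside 4.08%). It was 3 without 3-month 4 (6.52% beside 1.94%). From 3 to 6 months 0 of 46 were called, beside 0.0147% of all genes, and 3 had an unadjusted p under 0.05. The changes from 3 to 6 months ran from log2 -0.67 to 1.14.

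In the mice LNA-29 was set against control to ask what changes when miR-29 is blocked. The microRNAs of this family share their seed, bases 2 to 8, shown in capitals in the mature sequences of RefSeq (rat, GRCr8), because the seed is what pairs with targets.
rno-miR-29a-3p (chr4:60617968-60617989, minus strand): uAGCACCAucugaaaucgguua
rno-miR-29b-3p (chr4:60618342-60618364, minus strand): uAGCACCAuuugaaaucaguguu
rno-miR-29c-3p (chr13:109099412-109099433, plus strand): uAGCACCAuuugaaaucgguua
Of 15 tested matrix genes known as targets of miR-29, 7 rose with LNA-29 and none fell, among them Eln 1.82, Sparc 1.26 and Col3a1 1.23. Of the 42 members tested, 1 was called with LNA-29, 2.38% beside 2.43% of all 14596 genes tested, and it rose, beside 1.57% of all genes. The count was 1 in every alternative run, and the median change of the members was log2 0.12, beside 0.00 over all genes.

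That member was Il1rn, the interleukin-1 receptor antagonist. Il1rn read 249 at the lowest, 308 at the median and 385 at the highest in the 6 control libraries. With LNA-29 it read 704, 637, 737, 547 and 669. Every LNA-29 library stood above every control library, the only member of 42 whose groups did not overlap, which is 2.38% beside 3.95% of all genes tested (2.4% with LNA-29 all above). For Il1rn the change was log2 1.08 (SE 0.11, adjusted p = 0.000378), and over the alternatives it ran from log2 1.02 to 1.14. The cytokines that it opposes and their receptor were not called. Il1b read 30.3 at the lowest, 45.9 at the median and 75.1 at the highest in control libraries and 136, 25.0, 22.9, 31.1 and 35.0 with LNA-29, the first LNA-29 library being high. Il1a read 75.3 at the lowest, 109.6 at the median and 152 at the highest in control libraries and 108, 86.8, 166, 156 and 129 with LNA-29. The receptor Il1r1 read 1166 at the lowest, 1860.0 at the median and 2339.8 at the highest in control libraries and 1602, 3122, 1323, 2105 and 1753 with LNA-29, and the groups overlapped for all of these. Il1rap read 3438 at the lowest, 3860.2 at the median and 4655 at the highest in control libraries and 4076, 5060.1, 4141, 3983 and 4669 with LNA-29, again with overlap.

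**Figure D5:**
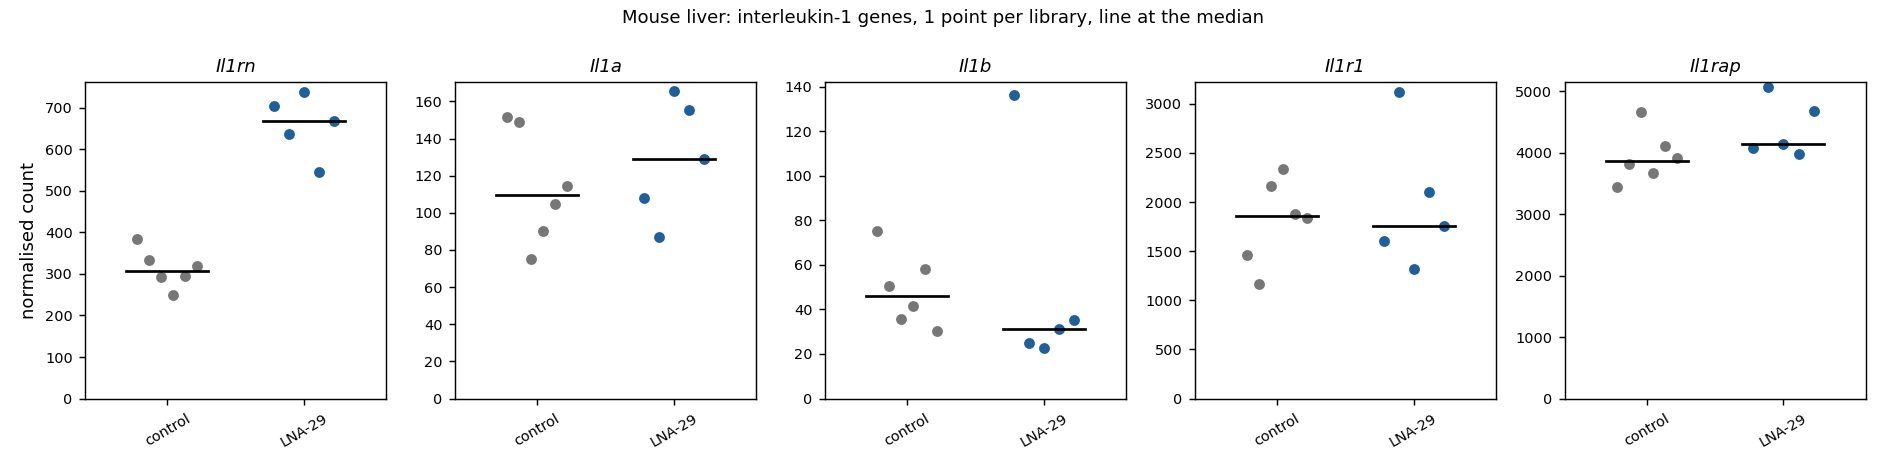
Points are normalised counts of Il1rn, Il1a, Il1b, Il1r1 and Il1rap in each mouse library, control against LNA-29, on linear axes from 0, with a line at each group's median. Il1rn with LNA-29 lies wholly above control, while the others overlap and 1 LNA-29 library is high for Il1b.

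The chemokines were not called in the mice. Cxcl12 read 9389.5 at the lowest, 13298 at the median and 14675 at the highest in control libraries and 9852, 9435, 10835, 12416 and 13168 with LNA-29, which overlapped. Cxcl1 read 40.4 at the lowest, 63.4 at the median and 134 at the highest in control libraries and 95.9, 55.2, 28.5, 36.9 and 31.1 with LNA-29, with 3 of 5 below the lowest control. Cxcl10 read 34.1 at the lowest, 70.0 at the median and 112 at the highest in control libraries and 92.4, 32.4, 91.8, 156 and 164 with LNA-29. The interferon-induced ligand thus spread widely in both groups. Cxcl16 read 232 at the lowest, 296 at the median and 322 at the highest in control libraries and 297, 236, 352, 352 and 475 with LNA-29, with 3 of 5 above the control range. Ccl6 read 369 at the lowest, 409 at the median and 445 at the highest in control libraries and 299, 361, 308, 427 and 485 with LNA-29, with 3 of 5 below it. Ccl24 read 28.6 at the lowest, 32.6 at the median and 39.2 at the highest in control libraries and 59.4, 37.4, 36.9, 36.6 and 40.3 with LNA-29. Cx3cl1 read 21.6 at the lowest, 32.0 at the median and 44.9 at the highest in control libraries and 44.2, 21.4, 29.2, 28.7 and 41.3 with LNA-29, and all of these groups overlapped. Ccl2, Ccl4, Ccr1, Cxcr2, Il1r2 and Il1rl1, called in rats, were under the filter in mice and so were not tested there. The same holds for S100a4, which was not called in rats.

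Nor was any receptor or S100 gene that passed the filter called with LNA-29. Ccr2, the monocyte receptor of Ccl2, read 12.1 at the lowest, 34.2 at the median and 69.6 at the highest in control libraries and 27.1, 25.4, 44.7, 43.0 and 45.0 with LNA-29. Cxcr4 read 51.9 at the lowest, 66.4 at the median and 96.7 at the highest in control libraries and 82.9, 99.6, 90.2, 44.8 and 76.5 with LNA-29. Cx3cr1 read 7.87 at the lowest, 24.3 at the median and 34.5 at the highest in control libraries and 12.8, 5.80, 16.3, 12.4 and 31.3 with LNA-29. The receptor groups overlapped, and Ccr7 came nearest to a call, at log2 1.01 (SE 0.34, adjusted p = 0.133). S100a10 read 4418 at the lowest, 4896 at the median and 5147 at the highest in control libraries and 6304, 5174, 5757, 4922 and 5452 with LNA-29, 4 of 5 above the control range, with a change of log2 0.20 (SE 0.07, adjusted p = 0.145). S100a11 read 94.3 at the lowest, 142 at the median and 214 at the highest in control libraries and 209, 123, 222, 171 and 209 with LNA-29. S100a6 read 15.1 at the lowest, 23.5 at the median and 36.2 at the highest in control libraries and 41.1, 36.6, 45.2, 22.1 and 31.9 with LNA-29, and both overlapped. S100a8 read 4.21 at the lowest, 17.3 at the median and 35.4 at the highest in control libraries and 50.04, 11.9, 15.2, 15.9 and 10.4 with LNA-29. S100a9 read 17.0 at the lowest, 27.9 at the median and 70.7 at the highest in control libraries and 73.4, 12.0, 31.4, 22.5 and 28.9 with LNA-29. The calprotectin genes varied from library to library in both groups, and the first LNA-29 library was the highest for both. In mice 0 of 14 macrophage markers and 0 of 3 tested neutrophil markers were called by limma, beside 2.43% of all genes.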

How the data were processed

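20 rat and 11 mouse liver RNA libraries, 1 table per species, were used. The deposited values are normalised counts, a signal scaled by the authors and not whole numbers; whole reads could not be recovered for nearly all values, so no count model was fitted. The tools DESeq2, STAR and Salmon and the builds rn6, mm10, mm9 and hg19 are named, per the submitters' processing notes, without versions or roles. Groups were read from the sample titles. All per-sample columns were used, and tests stayed within a table.

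limma 3.58.1 in R 4.3.3 was fitted to log2(normalised count + 1) with a variance trend, all groups of a table together, for genes with a mean of at least 10 (13640 in rats, 14596 in mice). P-values were adjusted over all genes tested by the Benjamini-Hochberg method and called under 0.05. The procedure was tested on simulated data. The alternatives were pseudocounts of 0.5 and 5, filters at a mean of 1 and none, 2 rescalings, a fit of only the 2 groups compared or without the trend, a replicate block, and omission of each library. 2 more, leaving out the 3 libraries highest in Lcn2 or in Krt19, were added after seeing the data.

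The members, gene lists and motifs were chosen with earlier results of these data known. By a written rule, values by library are given for a list of members named in it, where above the filter, and for the 10 called members with the largest change in each comparison with prediabetic or control; other called members are named with their change, and up to 3 called genes per list and direction. Members named in the text that were neither listed nor called, such as Cxcl6, Cxcl9, Ccl5 and Ccl22, were named after their values were seen. Ccr2 stands in the mouse table only. RefSeq gene order and promoters are of GRCr8, another build than the authors' rn6, so no coordinate was joined to the tables. The values of 1 tested receptor are not reported here, and it stays in the counts.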

Additional observations from a re-analysis of the deposited data

Results flagged for a closer look

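In each group of 4 to 10 libraries the highest and lowest value of the listed and called members were set against the rest by Dixon's ratio on the log2(normalised count + 1) scale, for 160 groups in all. In 12 of them 1 library stood apart, where chance gives about 1 in 20. Ccl24 stood apart 4 times, always high: 425 in 2-week 3 (next 268), 638 in 3-month 3 (next 315), 309 in 6-month 2 (next 254) and 59.4 in LNA-29 1 (next 40.3). Ccr1 was low at 22.3 in 2-week 4 (next 33.7) and high at 151 in 6-month 2 (next 57.0). Ccl3 was low at 13.3 in 3-month 5 (next 28.4), Cx3cl1 low at 20.9 in prediabetic 4 (next 34.9), and Il1r2 low at 1.30 in 2-week 2 (next 4.32). In the mice Cxcl12 was low at 9389.5 in control 4 (next 12802). LNA-29 1 stood high for Il1b, at 136 (next 35.0), and for S100a8, at 50.04 (next 15.9).

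Between 2 weeks and 6 months of diabetes 8 members differed, by a direct limma comparison of those stages. Age and duration of diabetes cannot be told apart in it, and of the 8 calls only that of Cxcl14 held when each library was left out in turn. The log2 differences were 2.65 for S100a8, 2.24 for S100a9, 1.98 for Cxcl14, 1.66 for Ccl21, 1.51 for Il1b, 1.03 for Ccl6, 0.67 for S100a13 and -1.13 for Cxcl12.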

How the results depend on the processing

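The calls of single members often depended on the alternative: 5 of 12 held in every alternative run at 3 months, 9 of 21 at 6 months, 1 of 8 for 6 months against 2 weeks and 1 of 1 with LNA-29. Of the values of called and uncalled members under the alternatives, 1808 kept direction and side of the threshold, 188 lost the call, 16 gained one and 35 changed sign. The count of members called ran over the omissions of 1 library from 5 to 14 at 3 months and from 13 to 22 at 6 months. It ran from 1 to 9 for 6 months against 2 weeks and from 0 to 3 for 3 months against 2 weeks. At the ends of these ranges the members' shares were 10.9% and 30.4% at 3 months, beside 10.7% and 17.5% of all genes. At 6 months they were 28.3% and 47.8%, beside 14.1% or 14.8% and 23.0%. For 6 months against 2 weeks they were 2.17% and 19.6%, beside 2.32% or 3.48% and 12.6%. The count was 0 in every alternative run at 2 weeks and for 6 against 3 months, and 1 with LNA-29. With the replicate block it was 13 at 3 months, 18 at 6 months, 4 for 6 months against 2 weeks and 1 for 3 months against 2 weeks. The replicate numbers do not pair the libraries: deviations of same-numbered libraries correlated at -0.18 to 0.22 in rats and -0.08 to 0.13 in mice, and 3 of 19 rat and 1 of 10 mouse libraries correlated best with their own number. Without the 3 libraries highest in Lcn2 the count was 11 at 6 months and 2 for 6 months against 2 weeks. The shares were 23.9% beside 12.7% of all genes and 4.35% beside 2.95%. Without the 3 highest in Krt19 the count was 13 and 2, and 3 for 3 months against 2 weeks. There the shares were 28.3% beside 12.8% of all genes, 4.35% beside 2.74%, and 6.52% beside 2.53%. Fewer libraries were fitted in these runs. The all-gene split for 6 months against 2 weeks was 636 higher and 567 lower, and 399 and 2102 with equal totals, which moved the median of all genes to -0.18; the members then gave 6 higher and 2 lower.

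Changes of sign fell on 14 results for single members, none of them called. Over the omissions of 1 library, the 2-week log2 change ran from -0.0085 to 0.14 for Il1rap, -0.33 to 0.0891 for Cxcr4, -0.0209 to 0.31 for Il1b, -0.21 to 0.0426 for Il1rn, -0.0894 to 0.55 for S100a6, -0.11 to 0.28 for S100a4, -0.12 to 0.23 for Cx3cl1 and -0.0416 to 0.16 for Ccl6; Il1rn was 0.0398 with equal totals and 0.0693 with the replicate block. Ccl24 at 6 months ran from -0.0624 to 0.17, and was -0.0169 with equal totals. With LNA-29 the omissions gave -0.0749 to 0.23 for Il1r1, -0.13 to 0.12 for Cx3cl1, -0.14 to 0.35 for Ccr2, -0.24 to 0.35 for S100a8 and -0.43 to 0.20 for S100a9; Cx3cl1 was 0.0234 with equal totals and 0.0801 with the replicate block, and S100a9 0.0158 with the block. The cause was not tested. Members below the filter, at low counts, were not tested, and a change within the spread of their few counts was not detectable at this depth.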
